A study of Mus musculus with 19 samples.

Results

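The genes described here are the ligands and receptors of axon guidance and of growth inhibition by myelin that were measured in GFP-positive cells sorted from dorsal root ganglia, which the labels call neurons. They were chosen by name only: protein-coding genes of the semaphorin, plexin, neuropilin, ephrin, Eph, Slit, Robo, Unc5 and netrin families, and named members of the repulsive guidance molecule, Nogo and receptor phosphatase groups. The rule found 43 of the 12629 genes in the table. They were 13 semaphorins, 8 plexins and neuropilins, 4 ephrins, 4 Eph receptors, 3 genes of the Slit and Robo families, 1 netrin receptor, 2 repulsive guidance molecules, 5 genes of Nogo and its receptors, 2 receptor phosphatases and Unc50. Unc50 matched by its letters alone and is not a netrin receptor. Of the classified genes, 22 encode ligands and 20 encode receptors. Plxna4, Epha4 and Dcc, which are receptors of the same families, were not analysed here.

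The study asked how neurons of the dorsal root ganglion (DRG) change their transcription when a crushed axon is enabled to grow back into the spinal cord. DRGs C5-C8 on the left were injected with AAV5-fGFP (GFP, driven by the CMV promoter) or with AAV5-α9-V5 (CAG promoter) plus AAV5-kindlin1-GFP (CMV promoter), here called α9k1, and the dorsal roots were crushed at the same time (crush) or left intact (naive). GFP-positive cells were sorted 8 weeks later, giving 19 libraries: 6 α9k1-naive and 4 α9k1-crush, with 5 GFP-naive and 4 GFP-crush as their controls. All groups therefore carried a viral vector. α9 is an integrin subunit that binds tenascin-C, and kindlin-1 is an adaptor that activates integrins. The study's methods give the animals as male Lewis rats aged 2 months, the sample labels give C57BL/6 mice, and the reads were aligned to the mouse genome. Between 3.87% and 4.05% of aligned bases differed from that reference.

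Sequencing gave 36.4 to 87.6 M read pairs a library, with 47.5% to 54.1% of reads placed on the genome. Across genes, r between libraries of 1 group was 0.948 to 0.976, against 0.847 to 0.949 for libraries of different groups. In α9k1-crush replicate 1 the log2 summed level of nociceptor markers was 9.02, against 11.3 to 13.2 in the other 18 libraries. Without this library 2 of the 43 genes were higher and 17 lower in the first comparison below, and 1 and 13 in the second. They were 3 and 1 in the third and 0 and 0 in the fourth. With it 2 and 15, 1 and 13, 3 and 1, and 0 and 0 were called. Of all 12629 genes, 1483 and 2185, 904 and 1979, 465 and 558, and 89 and 17 were called without it. With it the shares were 11.4% and 17.6%, 7.39% and 15.7%, 4.47% and 5.27%, and 0.728% and 0.182%. Fermt1, which encodes kindlin-1, averaged 0.62 and 0.57 in the GFP-naive and GFP-crush groups and 5.58 and 7.17 in the α9k1-naive and α9k1-crush groups on the log2 scale. Itga9, which encodes α9, was 1.77 to 2.40 in GFP-naive, 2.38 to 5.16 in α9k1-naive, 0.90 to 1.92 in GFP-crush and 5.53 to 7.51 in α9k1-crush, so that the naive groups overlapped. Neuronal markers were high in every library, with a log2 summed level of 12.8 to 14.4 over 12 genes. Glial markers were as high, with 12.7 to 14.2 over 13 genes, and in GFP-naive the medians were 13.8 for glia and 13.6 for neurons. The values are bulk measurements, in which fewer cells of a type and less RNA per cell cannot be told apart.

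Axon guidance proteins steer growing axons by attraction and repulsion. Secreted class 3 semaphorins bind neuropilins, which signal through plexins, while membrane-bound semaphorins bind plexins directly. Ephrins signal to Eph receptors on contacting cells and can signal back into the cell that carries them, Slits repel axons through Robo receptors, and Nogo-A (Rtn4) in myelin acts on Rtn4r with its partner Lingo1. Receptor phosphatase sigma (Ptprs) and its relative Ptprf bind proteoglycans, and Ptprs is known as a receptor for the chondroitin sulfate proteoglycans that stop axons at the entry of the dorsal root into the spinal cord. Neuropilins and ephrin-B2 also act in blood vessels, where neuropilins are co-receptors for vascular endothelial growth factor and ephrin-B2 marks arteries.

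The promoters of 5 genes are shown. They include Efnb2, Nrp1 and Slit2, for which a difference of the α9k1 effect after crush was called below. For Nrp1 and Slit2 that call was lost in some fits that left out 1 library. The others are Nrp2 and Sema7a, which were lower in α9k1-naive together with Nrp1 and Efnb2. Each window is from RefSeq on the mouse build GRCm38.p6 and runs from 250 bases before to 50 bases after a start of the gene in RefSeq, 5′ to 3′ on the strand of the gene. For Nrp2, Slit2 and Sema7a that start is not the one in the authors' gene table. Capitals mark GC boxes, searched as GGGCGG and its reverse complement CCGCCC. In the authors' gene table Efnb2 lies at chr8:8617434-8661242, and its window is chr8:8661193-8661492 on the minus strand. Nrp1 lies at chr8:128359073-128505462, with the window chr8:128358823-128359122 on the plus strand. Nrp2 lies at chr1:62703285-62818695, with the window chr1:62703067-62703366 on the plus strand. Slit2 lies at chr5:47983138-48307733, with the window chr5:47982905-47983204 on the plus strand. Sema7a lies at chr9:57940113-57962864, with the window chr9:57939862-57940161 on the plus strand.
Efnb2: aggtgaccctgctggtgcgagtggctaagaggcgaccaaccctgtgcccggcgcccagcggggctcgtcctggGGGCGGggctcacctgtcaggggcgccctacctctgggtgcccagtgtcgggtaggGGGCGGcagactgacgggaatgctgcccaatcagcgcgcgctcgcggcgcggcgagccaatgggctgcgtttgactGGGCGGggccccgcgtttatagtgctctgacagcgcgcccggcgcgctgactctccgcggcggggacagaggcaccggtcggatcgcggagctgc
Nrp1: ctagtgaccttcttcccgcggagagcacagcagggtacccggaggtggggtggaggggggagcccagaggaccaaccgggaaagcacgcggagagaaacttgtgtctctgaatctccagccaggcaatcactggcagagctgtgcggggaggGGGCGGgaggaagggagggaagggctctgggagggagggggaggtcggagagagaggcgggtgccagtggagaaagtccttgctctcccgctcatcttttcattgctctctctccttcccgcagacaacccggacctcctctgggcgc
Nrp2: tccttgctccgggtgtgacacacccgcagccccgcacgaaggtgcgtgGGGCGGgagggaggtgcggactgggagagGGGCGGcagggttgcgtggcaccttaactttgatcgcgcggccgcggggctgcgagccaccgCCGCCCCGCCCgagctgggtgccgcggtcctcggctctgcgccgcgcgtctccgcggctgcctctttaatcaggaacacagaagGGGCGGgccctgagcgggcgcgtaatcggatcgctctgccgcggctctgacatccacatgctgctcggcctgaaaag
Slit2: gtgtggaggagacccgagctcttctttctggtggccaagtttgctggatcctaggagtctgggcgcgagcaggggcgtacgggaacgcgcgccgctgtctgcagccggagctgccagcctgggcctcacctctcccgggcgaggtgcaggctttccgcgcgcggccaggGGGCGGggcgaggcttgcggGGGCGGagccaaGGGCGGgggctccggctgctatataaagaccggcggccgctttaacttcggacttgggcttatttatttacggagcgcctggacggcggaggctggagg
Sema7a: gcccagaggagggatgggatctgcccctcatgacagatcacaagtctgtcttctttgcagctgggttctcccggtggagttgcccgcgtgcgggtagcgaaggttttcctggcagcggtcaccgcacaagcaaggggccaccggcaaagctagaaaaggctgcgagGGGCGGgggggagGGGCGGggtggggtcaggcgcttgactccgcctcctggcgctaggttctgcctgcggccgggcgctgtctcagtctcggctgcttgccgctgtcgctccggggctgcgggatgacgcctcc

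These windows held 3 GC boxes in Efnb2, 1 in Nrp1, 5 in Nrp2 of which a pair overlap by a base, 3 in Slit2 and 2 in Sema7a. Their GC content was 72.3% in Efnb2, 64.0% in Nrp1, 70.7% in Nrp2, 68.0% in Slit2 and 67.3% in Sema7a. Of the 43 genes, 37 had a window in the table, and some had several. A GC box was in 41 of their 57 windows (71.9%) and in 35.7% of all 32851 windows, while median GC content was 65.3% and 52.7%. TATAAA or TTTATA was in the Efnb2 and Slit2 windows, in 7.02% of the windows of the guidance genes and in 13.6% of all windows. The AP-1 motif (TGACTCA or TGAGTCA), the cAMP response element (TGACGTCA) and the E-box (CACGTG) were found in none of the 5 windows, and in 5.20%, 1.79% and 7.15% of all windows. These letters are from mouse, are a description of the sequence and say nothing of binding.

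Expression is given as the authors' log2 value, normalized for gene length and depth. A log2FC ± SE is the difference between groups in a limma fit to all 19 libraries at equal values of 3 components of the alignment and sequencing metrics. Calls are those with an adjusted p under 0.1, where p-values of all 12629 genes were adjusted together by Benjamini-Hochberg. The covariates differ between groups, and 74.5% of the variance of the third component lay between them. The result of a fit without covariates is therefore given where it changes the account. Across the 4 comparisons between groups, 25 of the 43 genes were called at least once and 18 in none, against 44.4% of all genes called at least once. Mean values over all libraries ran from 1.80 for Sema5b to 8.35 for Sema3b.

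**Figure D1:**
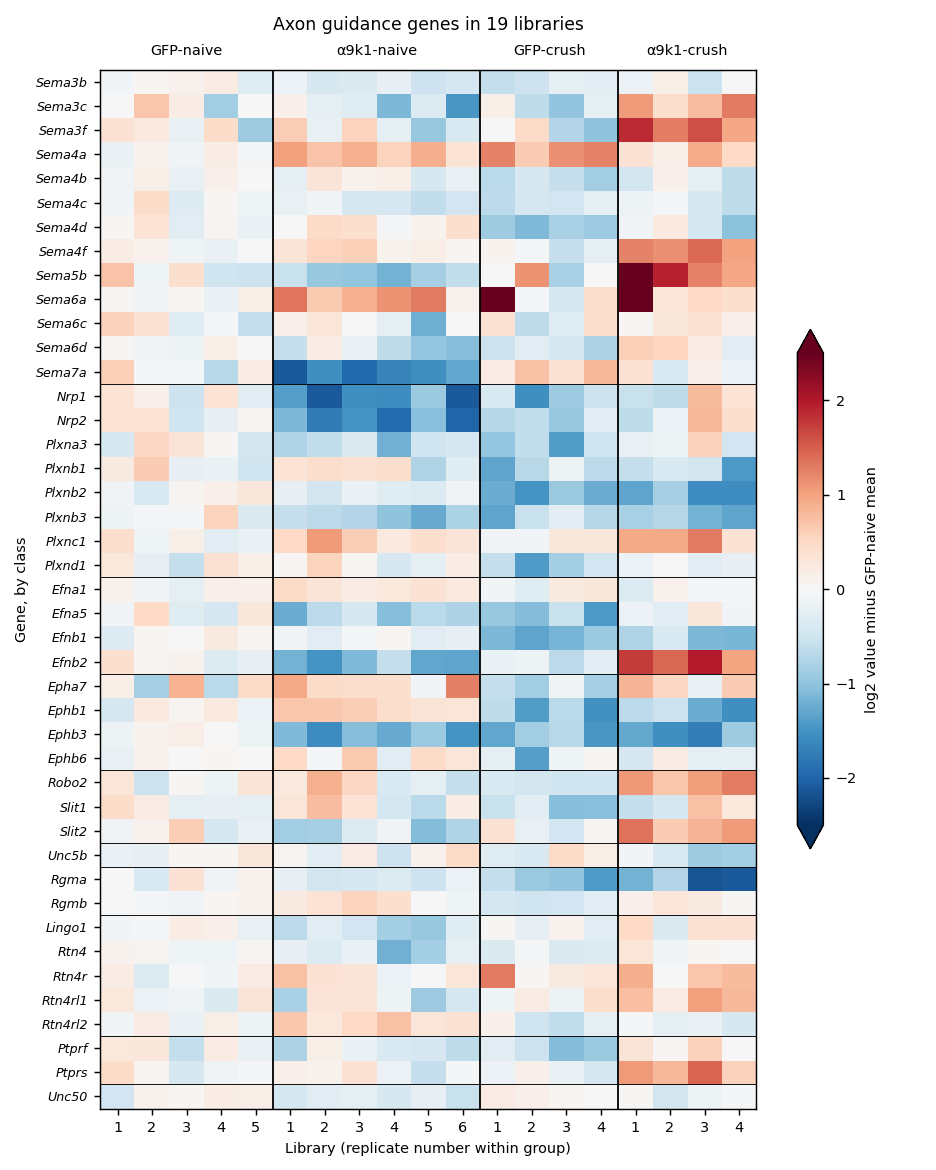
Expression of the 43 guidance genes (rows, grouped by class) in the 19 libraries (columns, by group and replicate number), as log2 value minus the mean of the 5 GFP-naive libraries of that gene. Colours stop at 2.5 on either side. Sema7a, Nrp1, Nrp2 and Efnb2 are blue in α9k1-naive, and Efnb2 is red in α9k1-crush.

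The first comparison was α9k1-naive with GFP-naive, the effect of the vectors without axotomy. Of the 43 genes, 17 were called, against 29.1% of all genes tested. Of these, 15 were lower in α9k1-naive and 2 higher, where the background was 17.6% and 11.4%. The median log2FC of the 43 genes was -0.30, and that of all genes -0.08. The neuropilins, Sema7a, Efnb2 and Ephb3 fell most, and Epha7 and Sema4a rose. Without covariates 16 genes were lower (background 29.5%) and 7 higher (16.5%), in all 23 against 46% of all genes. The 7 were Sema4a, Plxnc1, Ephb1, Rtn4rl2, Efna1, Sema4f and Rgmb, and Epha7 was not among them. Slit2, Sema3b and Sema5b were lower in this fit and not called with covariates. The groups did not overlap for 9 of the 43 genes that were lower (13.2% of all genes) and 4 that were higher (8.43%).

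The receptors Nrp1 and Nrp2, which bind class 3 semaphorins, had the largest decreases with covariates. Without covariates the largest was that of Sema7a (-1.68). Nrp1 was 4.20, 3.99, 3.36, 4.22 and 3.58 in the 5 GFP-naive libraries, and had a lowest, median and highest value of 1.77, 2.33 and 2.94 in α9k1-naive. Its log2FC was -2.03 ± 0.36 (limma, adjusted p = 0.001). Nrp2 was 4.04, 4.03, 3.19, 3.48 and 3.72 in GFP-naive, and 1.69, 2.07 and 2.65 (lowest, median and highest) in α9k1-naive. Its log2FC was -2.01 ± 0.30 (limma, adjusted p = 2.5e-04). For both genes every α9k1-naive library was below every GFP-naive library, and in both the calls held whichever of the 19 libraries was left out. Among the plexins, Plxna3 (log2FC -0.86, limma adjusted p = 0.050) and Plxnb3 (-0.83, adjusted p = 0.039) were also lower, and Plxnb1, Plxnb2, Plxnc1 and Plxnd1 did not pass the test. Plxnc1 was called higher without covariates (0.53, adjusted p = 0.023).

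Sema7a encodes a membrane-anchored semaphorin that also binds integrins. It was 3.01, 2.37, 2.38, 1.72 and 2.60 in GFP-naive and 0.31, 0.81 and 1.11 (lowest, median and highest) in α9k1-naive, with no overlap and a log2FC of -1.51 ± 0.25 (limma, adjusted p = 6.1e-04). Sema6d (-0.83) and Sema4c (-0.48) were lower too. Sema3c was lower with covariates (-0.95, limma adjusted p = 0.081) but not called without them (-0.56, adjusted p = 0.149), and the call held in 11 of the 19 fits that left out 1 library. Sema4a was the semaphorin that rose: it was 3.19, 3.45, 3.26, 3.52 and 3.31 in GFP-naive and 3.68, 4.15 and 4.38 (lowest, median and highest) in α9k1-naive. The groups did not overlap, and the log2FC was 0.48 ± 0.19 (limma, adjusted p = 0.082), a call that held in 11 of the 19 fits that left out 1 library.

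Efnb2, the ligand ephrin-B2, was 2.94, 2.58, 2.63, 2.20 and 2.34 in GFP-naive and 1.05, 1.30 and 1.95 (lowest, median and highest) in α9k1-naive. All 6 α9k1-naive libraries lay below all 5 GFP-naive libraries, and the log2FC was -1.41 ± 0.22 (limma, adjusted p = 2.9e-04). Efna5 also fell (-0.73, adjusted p = 0.050 with limma), whereas Efna1 and Efnb1 did not pass the test. Without covariates Efna1 was called higher (0.31, adjusted p = 0.039), and its groups did not overlap. Among the receptors, Ephb3 was 2.97, 3.19, 3.26, 3.10 and 2.98 in GFP-naive and 1.53, 1.92 and 2.17 (lowest, median and highest) in α9k1-naive. The groups were apart, with a log2FC of -1.17 ± 0.21 (limma, adjusted p = 9.8e-04). Epha7 was 2.17, 1.18, 2.88, 1.35 and 2.49 in GFP-naive and 1.94, 2.47 and 3.28 (lowest, median and highest) in α9k1-naive. Its groups overlapped, its log2FC was 1.33 ± 0.30 with covariates (limma, adjusted p = 0.006), and without covariates it was 0.57 and not called (adjusted p = 0.141).

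Of Nogo and its receptors, 2 of 5 genes were called, both lower, against 17.6% of all genes. Lingo1 was 4.78, 4.79, 5.04, 4.98 and 4.67 in GFP-naive and 3.90, 4.29 and 4.58 (lowest, median and highest) in α9k1-naive. The groups did not overlap, the log2FC was -0.51 ± 0.20 (limma, adjusted p = 0.084), and the call held in 9 of the 19 fits that left out 1 library. Rtn4 itself (-0.50) was lower, as was Unc50 (-0.45). Ptprf was lower with covariates (-0.80, limma adjusted p = 0.021) and not called without them (-0.37, adjusted p = 0.145). Rtn4r was 3.48, 2.96, 3.31, 3.24 and 3.50 in GFP-naive and 3.14, 3.61 and 4.02 (lowest, median and highest) in α9k1-naive, and the groups overlapped (log2FC 0.21 ± 0.31, limma adjusted p = 0.672).

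Markers of vessel and connective tissue cells fell in the same comparison. All 7 measured fibroblast and mural markers of 8 and all 4 measured endothelial markers of 10 were lower in α9k1-naive, among them Dcn (log2FC -3.10) and Emcn (-2.24). The log2 summed level of the fibroblast and mural list was 9.25 to 9.58 in GFP-naive and 6.58 to 8.10 in α9k1-naive, and that of the endothelial list was 6.42 to 6.97 and 3.93 to 5.86. None of these markers was at 0, and the lowest were Acta2 at a mean of 0.97 and Tek at 1.63 in α9k1-naive. The summed neuronal markers were 13.4 to 13.7 in GFP-naive and 12.8 to 13.1 in α9k1-naive, and the glial ones 13.6 to 13.9 and 12.7 to 13.0. Of 10 measured macrophage markers of 12, 7 were higher. Of 8 markers of large-diameter neurons, Kcna1 (-2.38), Nefh (-2.32), Scn1a (-1.72) and Pvalb (-1.46) were lower and Spp1 (1.22) and Ntrk2 (0.49) higher. The part of these cells in the decreases of Nrp1, Nrp2, Efnb2 and Sema7a was not tested.

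**Figure D2:**
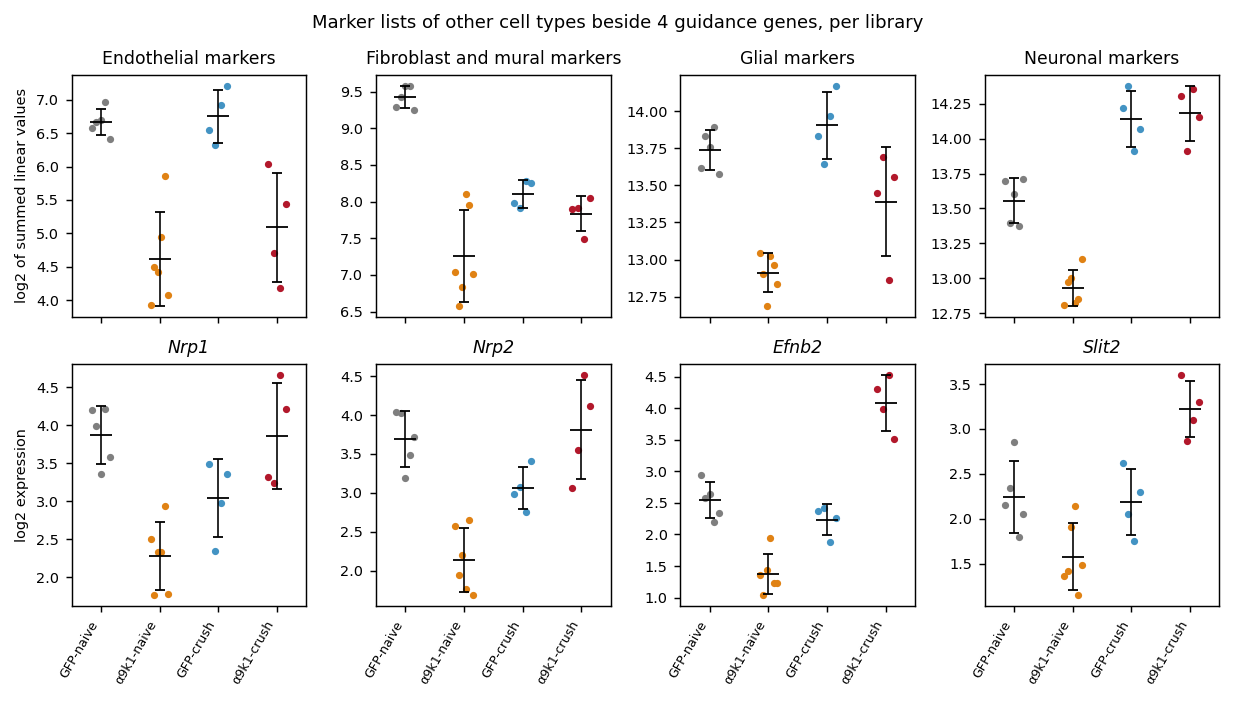
Upper row, log2 of the summed linear values of the endothelial, fibroblast and mural, glial and neuronal markers; lower row, log2 expression of Nrp1, Nrp2, Efnb2 and Slit2. Points are libraries, horizontal bars means and error bars the SD. On average α9k1-naive is lowest in all 8 panels, and Efnb2 and Slit2 are highest in α9k1-crush.

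The second comparison was GFP-crush with GFP-naive, the effect of dorsal root crush without the integrin. It shares the GFP-naive libraries with the first. Of the 43 genes, 14 were called, against 23.1% of all genes, 13 of them lower (background 15.7%) and 1 higher (7.39%). The median log2FC was -0.37, and that of all genes -0.08. Lower genes were 3 of the 4 Eph receptors, 4 of the 8 plexins and neuropilins and 2 of the 4 ephrins, and these numbers were 2, 7 and 2 without covariates. Over all genes the split between 933 higher and 1984 lower became 1826 and 1180 when libraries were centred on their medians and 1206 and 1373 after quantile normalization. Centring moved the median of all genes from -0.08 to 0.06. Of the 43 genes, 10 were then lower with centring, 11 were lower with quantile normalization, and 2 were higher with either. Without covariates 19 of the 43 were lower (background 20.1%) and 2 higher (11%), against 31.1% of all genes called. In 13 of the 43 the groups did not overlap (19.8% of all genes), 12 of them lower (12.2%) and 1 higher (7.59%).

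Among the Eph receptors, Ephb3 was 2.97 to 3.26 in GFP-naive, as given above, and 1.80, 2.23, 2.41 and 1.63 in GFP-crush, with no overlap. Its log2FC was -1.30 ± 0.21 (limma, adjusted p = 0.0013). Ephb1, an ephrin-B receptor, was 4.20, 4.86, 4.69, 4.86 and 4.48 in GFP-naive and 3.98, 3.22, 3.95 and 3.10 in GFP-crush. The groups did not overlap, and the log2FC was -1.16 ± 0.28 (limma, adjusted p = 0.015). Epha7 was 1.42, 1.15, 1.93 and 1.18 in GFP-crush, overlapping the 1.18 to 2.88 of GFP-naive (log2FC -0.94 ± 0.31, limma adjusted p = 0.053). It was not called without covariates (-0.59, adjusted p = 0.205). Of the 4 ephrins, their ligands, Efnb1 (log2FC -1.11) and Efna5 (-1.13) fell, both with no overlap between groups, and Efna1 (0.10) and Efnb2 (0.05) were not called.

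Plxnb2, a receptor for class 4 semaphorins, had the smallest adjusted p of the 43 genes in this comparison. It was 4.76, 4.46, 4.90, 4.96 and 5.13 in GFP-naive and 3.60, 3.35, 3.91 and 3.61 in GFP-crush, so that the highest crushed value was below the lowest naive one. The log2FC was -1.26 ± 0.16 (limma, adjusted p = 2.7e-04). Plxna3 (-0.92), Plxnb3 (-0.79) and Plxnd1 (-0.78) were lower with it. The ligands Sema4d (-0.95), Rgma (-1.03) and Sema3b (-0.50), and Rtn4 (-0.39), were also lower. The call of Rtn4 was lost without covariates.

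Sema4a rose after crush. It was 4.59, 3.97, 4.48 and 4.58 in GFP-crush, all above the 3.19 to 3.52 of GFP-naive, with a log2FC of 1.15 ± 0.19 (limma, adjusted p = 0.0016). Nrp1 was 3.49, 2.35, 2.97 and 3.36 in GFP-crush and Nrp2 was 2.99, 3.08, 2.75 and 3.41. Neither was called with covariates (log2FC -0.56 ± 0.36 and -0.37 ± 0.30, limma adjusted p = 0.318 and 0.436), and both were lower without them (-0.83 and -0.64). Sema7a was 2.62, 3.15, 2.79 and 3.24 in GFP-crush (log2FC 0.59 ± 0.25, limma adjusted p = 0.127, and 0.53 without covariates, called with an adjusted p of 0.094).

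Of the 7 receptors given for their role whatever their values, none was called with covariates in this comparison. Rtn4r was 4.59, 3.32, 3.52 and 3.60 in GFP-crush, where 1 library of 4 was high, and its log2FC was 0.45 ± 0.31 (limma, adjusted p = 0.354). Lingo1 was 4.89, 4.64, 4.96 and 4.57, overlapping the 4.67 to 5.04 of GFP-naive. Ptprs was 5.75, 5.37, 4.89, 5.21 and 5.26 in GFP-naive and 5.14, 5.42, 5.13 and 4.88 in GFP-crush. Unc5b, a netrin receptor, was 2.55, 2.51, 2.76, 2.74 and 2.99 in GFP-naive and 2.41, 2.32, 3.19 and 2.86 in GFP-crush. Robo2 was 4.30, 3.46, 4.04, 3.87 and 4.33 in GFP-naive and 3.63, 3.55, 3.50 and 3.50 in GFP-crush, and it was not called (log2FC -0.25 ± 0.28, limma adjusted p = 0.572).

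Of the 7 fibroblast and mural markers, 6 were lower in this comparison as well, and their summed level in GFP-crush was 7.92 to 8.28. No endothelial marker was called, with a summed level of 6.33 to 7.22. Of the 10 macrophage markers, 7 were higher, and of the 12 neuronal markers 6 were. Of the 13 glial markers 5 were lower, Egr2 (-1.39), Fabp7 (-1.05), Kcnj10 (-0.88), Sox10 (-0.69) and Glul (-0.51), and Mbp (0.79) was higher. The glial summed level was 13.6 to 14.2 in GFP-crush, which overlaps that of GFP-naive. The part of these cells in the values of the guidance genes was not tested.

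**Figure D3:**
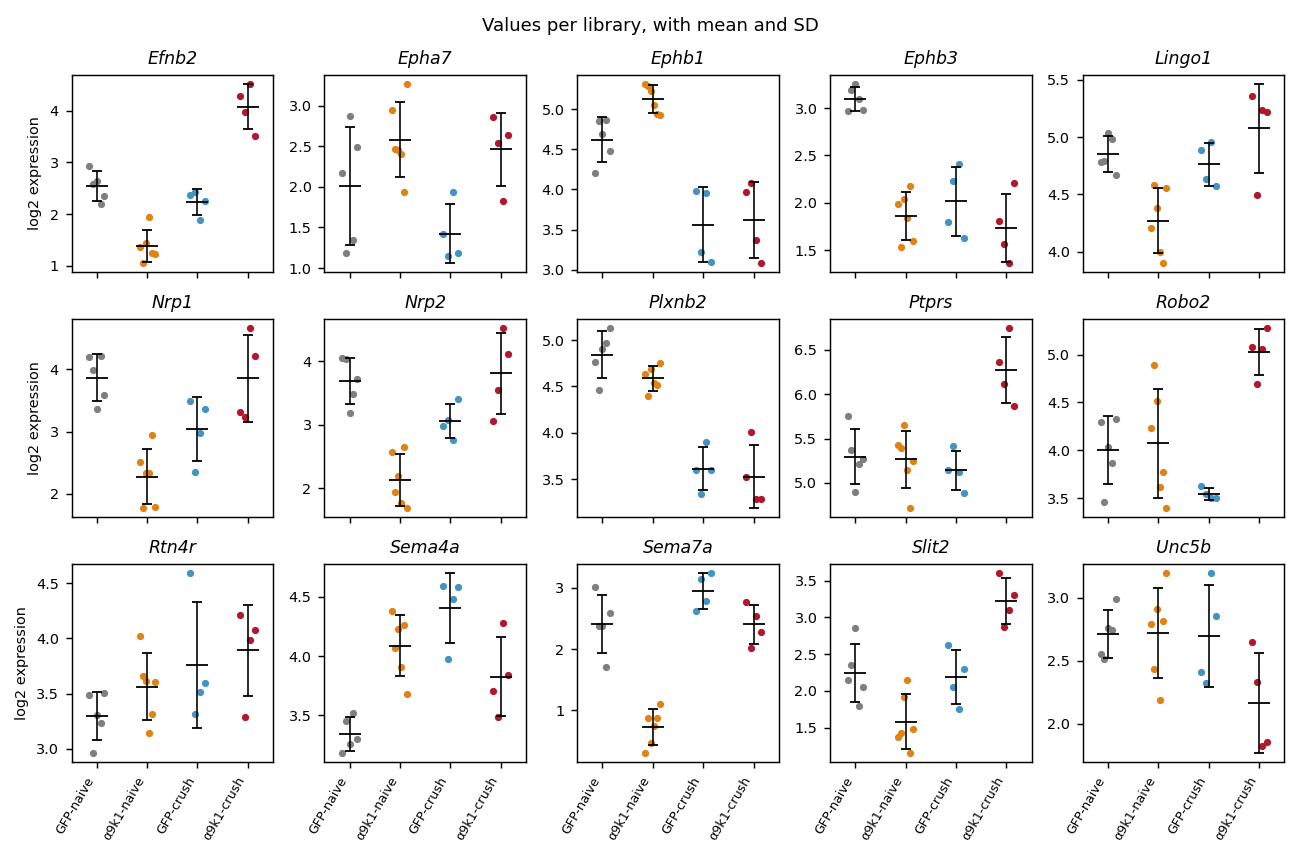
Log2 expression of the 15 genes given with a value in every library (points), with the mean (bar) and SD (error bar) of each group. Plxnb2, Ephb1 and Ephb3 are lower in both crush groups than in GFP-naive, and Efnb2 and Robo2 in α9k1-crush lie above every GFP-crush library.

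The third comparison was α9k1-crush with α9k1-naive, the effect of crush in cells that carry the integrin and its activator. It shares the α9k1-naive libraries with the first. With covariates 4 of the 43 genes were called, against 9.74% of all genes: Efnb2, Slit2 and Nrp1 were higher after crush (background 4.47%) and Plxnb2 was lower (5.27%). Without covariates 18 were higher (28.5%) and 9 lower (27.1%), against 55.6% of all genes called in either direction. The variance of the difference was 0.417 times that within groups in this fit and 2.12 times with covariates. In 18 of the 43 genes the groups did not overlap, which was so in 33.4% of all genes, with 12 higher (17.4%) and 6 lower (16.1%).

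Efnb2 was 4.29, 3.98, 4.53 and 3.52 in α9k1-crush, and its lowest value there was above the highest of every other group. The log2FC against α9k1-naive was 2.87 ± 0.39 (limma, adjusted p = 0.0014), and the call held in all 19 fits that left out 1 library. Slit2, a ligand of Robo receptors, was 3.60, 2.87, 3.10 and 3.30 in α9k1-crush and 1.16, 1.45 and 2.15 (lowest, median and highest) in α9k1-naive, again with no overlap. In GFP-naive it was 2.15, 2.34, 2.86, 1.79 and 2.06. Its log2FC was 2.31 ± 0.52 (limma, adjusted p = 0.018), and without α9k1-naive replicate 4 the adjusted p was 0.106. Nrp1 was 3.31, 3.24, 4.66 and 4.21 in α9k1-crush, all above α9k1-naive, with a log2FC of 2.29 ± 0.65 (limma, adjusted p = 0.054). That call was lost without α9k1-crush replicate 4, α9k1-naive replicate 2 or GFP-crush replicate 2, with adjusted p values up to 0.128.

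Nrp2 was 3.06, 3.55, 4.52 and 4.12 in α9k1-crush, also above every α9k1-naive library. It was not called with covariates (log2FC 1.07 ± 0.54, limma adjusted p = 0.268) and was without them (1.68). Sema7a was 2.77, 2.03, 2.54 and 2.27 in α9k1-crush, above the 0.31 to 1.11 of α9k1-naive (log2FC 1.14 ± 0.45, limma adjusted p = 0.163, and 1.67 without covariates, called). Plxnb2 was 3.53, 4.01, 3.29 and 3.29 in α9k1-crush and 4.39, 4.59 and 4.75 (lowest, median and highest) in α9k1-naive. The groups did not overlap, and the log2FC was -0.97 ± 0.29 (limma, adjusted p = 0.062). Leaving out α9k1-crush replicate 3 or 4, α9k1-naive replicate 1, 3 or 4, or GFP-naive replicate 3 ended that call, with adjusted p values up to 0.255. Ephb1 was 3.96, 4.08, 3.38 and 3.08 in α9k1-crush and 4.92, 5.14 and 5.32 (lowest, median and highest) in α9k1-naive, with no overlap (log2FC -1.30 ± 0.51, limma adjusted p = 0.155, and -1.50 without covariates, called). Rtn4 changed sign with the fit: its log2FC was -0.50 ± 0.25 (limma, adjusted p = 0.260) with covariates and 0.57 without (called), where every α9k1-crush library was above every α9k1-naive one.

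In this comparison Col1a1, Col1a2, Dcn and Rgs5 of the 7 fibroblast and mural markers and Emcn and Flt1 of the 4 endothelial markers were also higher after crush. Their summed levels in α9k1-crush were 7.49 to 8.05 and 4.18 to 6.04, which overlap those of α9k1-naive. In every α9k1-crush library both lists were below GFP-naive. Efnb2 was above every GFP-naive library. So was Slit2, by a narrow margin: its lowest value was 2.87 in α9k1-crush, and its highest in GFP-naive was 2.86. The part of these cells in the values of Efnb2, Slit2 and Nrp1 was not tested.

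The fourth comparison was α9k1-crush with GFP-crush, the regenerating condition against axotomy without regeneration. It shares its libraries with the other crush comparisons. None of the 43 genes was called with covariates in limma, against 0.911% of all genes (0.728% higher and 0.182% lower), and 3 had an unadjusted p under 0.05 in limma, as did 9.11% of all genes. Without covariates 21 were higher in α9k1-crush and 4 lower, where 58% of all genes were called, 29.6% higher and 28.3% lower. In 13 of the 43 genes every α9k1-crush library was above every GFP-crush library (20% of all genes), and in 0 of them every one was below (20.8%), together 13 against 40.8%. In this comparison the covariates raised the variance of the difference from 0.500 to 3.11 times the variance within groups.

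The largest difference without covariates was in Efnb2, whose 4 α9k1-crush values of 3.52 to 4.53 were above the 2.37, 2.42, 1.88 and 2.26 of GFP-crush. Its log2FC was 1.85 without covariates (limma, adjusted p = 5.1e-06) and 1.41 ± 0.47 with them (adjusted p = 0.331). Robo2, the Slit receptor, was 5.08, 4.70, 5.05 and 5.27 in α9k1-crush, all above the 3.50 to 3.63 of GFP-crush, and its lowest, median and highest values in α9k1-naive were 3.40, 4.003 and 4.89. The log2FC was 1.48 without covariates (limma, adjusted p = 1.8e-04) and 0.10 ± 0.60 with them (adjusted p = 0.980). Ptprs was 6.36, 6.12, 6.74 and 5.87 in α9k1-crush, above the 4.88 to 5.42 of GFP-crush and the 4.72, 5.32 and 5.66 (lowest, median and highest) of α9k1-naive. The log2FC was 1.13 without covariates (limma, adjusted p = 2.9e-04) and -0.30 ± 0.40 with them (adjusted p = 0.883), so the direction depended on the covariates. The sign differed between the fits for 13 of the 43 genes, and the other such genes that were called without covariates were Nrp2 (-0.57 with and 0.75 without), Slit1 (-1.09 and 0.73), Plxnc1 (-0.12 and 0.78), Sema6d (-0.34 and 0.77) and Rtn4rl1 (-0.32 and 0.60). For Efnb2, Robo2 and Ptprs the 2-sided exact permutation p on the deposited values was 0.0286, the smallest that 4 against 4 libraries can give.

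The means of Sema3f, a ligand of Nrp2, were 4.97 in α9k1-crush and 3.22 in GFP-crush, and those of Sema4f were 5.66 and 4.26, with no overlap in either. With covariates their log2FC was 0.05 ± 0.79 and 0.44 ± 0.29, and neither was called. Slit2 was 2.62, 2.05, 1.76 and 2.30 in GFP-crush and higher in every α9k1-crush library (log2FC 1.69 ± 0.62, limma adjusted p = 0.404, and 1.03 without covariates, called). Epha7 was 2.86, 2.54, 1.82 and 2.64 in α9k1-crush, overlapping GFP-crush (log2FC 1.75 ± 0.66, limma adjusted p = 0.426, and 1.04 without covariates, called). Among the genes lower without covariates, Sema4a was 3.71, 3.49, 4.27 and 3.84 in α9k1-crush (log2FC -0.58), and Unc5b was 2.65, 2.33, 1.83 and 1.86 (-0.53), and both overlapped GFP-crush. In α9k1-naive Unc5b was 2.19, 2.80 and 3.19 (lowest, median and highest). Lingo1 was 5.36, 4.50, 5.23 and 5.22, Rtn4r was 4.21, 3.29, 3.98 and 4.08, and Ephb3 was 1.81, 1.56, 1.36 and 2.20 in α9k1-crush. None of these 3 was called in either fit.

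With covariates no marker of the endothelial, fibroblast and mural, neuronal or macrophage lists was called in the fourth comparison, and of the glial ones Egr2 was higher. Without covariates 3 of the 4 endothelial markers (Cldn5, Flt1 and Emcn) and 2 of the 7 fibroblast and mural markers (Acta2 and Rgs5) were lower in α9k1-crush. Of the 13 glial markers 7 were then lower and 2 higher, and of the 12 neuronal markers 2 were lower and 5 higher. The endothelial summed level was 4.18 to 6.04 in α9k1-crush and 6.33 to 7.22 in GFP-crush, with no overlap. The fibroblast and mural level was 7.49 to 8.05 and 7.92 to 8.28, and the glial level 12.9 to 13.7 and 13.6 to 14.2. The part of these cells in the differences of Efnb2, Robo2 and Ptprs was not tested.

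**Figure D4:**
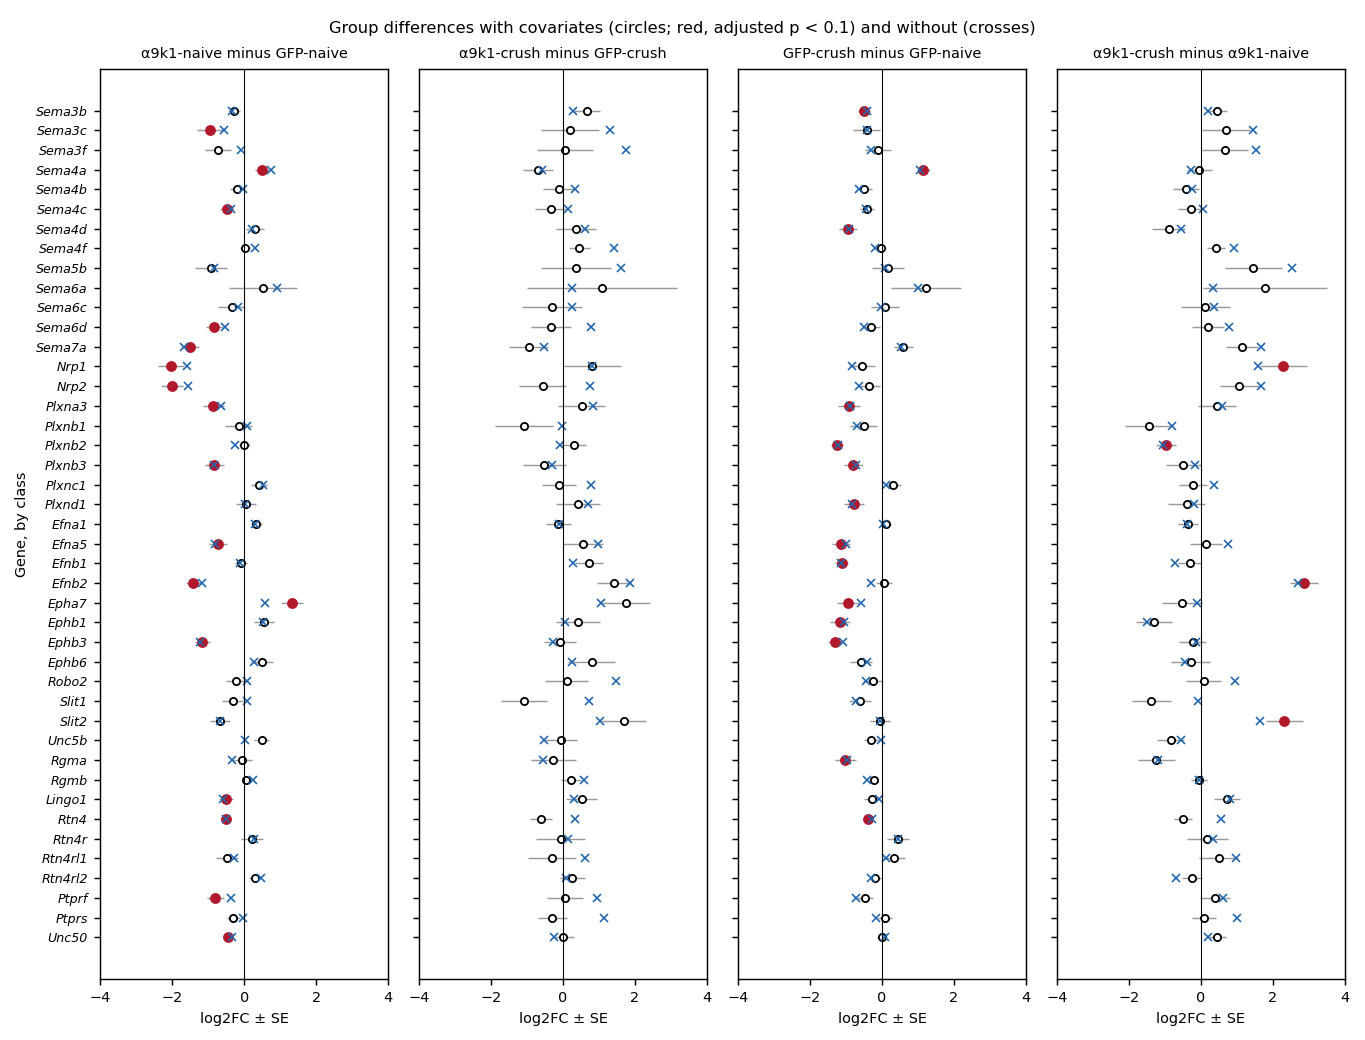
Log2 fold change of the 43 guidance genes in the 4 comparisons between groups, with covariates (circles, ± SE; red where the adjusted p is under 0.1) and without covariates (blue crosses). In α9k1-crush against GFP-crush no circle is red, and the crosses of Ptprs and Robo2 lie at 1.13 and 1.48 while their circles lie at -0.30 and 0.10.

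Whether the α9k1 effect differed after crush was tested with the interaction, in which the α9k1 effect of naive cells is subtracted from that of crushed ones. It was called for 3 of the 43 genes, against 2.2% of all genes, and positive in each (background 1.35%): Nrp1 (2.84 ± 0.75, limma adjusted p = 0.090), Efnb2 (2.82 ± 0.44, adjusted p = 0.010) and Slit2 (2.37 ± 0.59, adjusted p = 0.074). In the 3 genes the α9k1 mean was below the GFP mean without crush and above it after crush. For Efnb2 these means were 1.38 ± 0.31 (SD, n = 6) and 2.54 ± 0.29 (n = 5), and 4.08 ± 0.44 (n = 4) and 2.23 ± 0.25 (n = 4). The interaction of Efnb2 was called in all 19 fits that left out 1 library, that of Slit2 in 10 and that of Nrp1 in 7. Without α9k1-crush replicate 1 that of Slit2 was 2.21 (limma, adjusted p = 0.109). Without covariates 21 interactions were positive (background 23.3%) and 2 negative (16.1%), against 39.4% of all genes called. The variance of the interaction was 0.867 times that within groups in this fit and 2.78 times with covariates. The interaction of Rtn4 was -0.11 with covariates and 0.84 without, called. Over all genes the split of 171 positive and 107 negative interactions became 118 and 167 with median centring and 128 and 134 with quantile normalization. Interactions were also positive for 4 of the 7 fibroblast and mural markers and for Emcn of the 4 endothelial markers, and their part was not tested.

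Co-receptors and signalling genes of the same pathways were counted as a further pair of lists. Of 15 co-receptors and related ligands 9 were measured. In α9k1-naive against GFP-naive, Ngfr (-1.27), the p75 partner of Rtn4r, the myelin inhibitor Mag (-1.26), Gpc1 (-0.88) and Nrcam (-0.67) were lower and Flrt3 (0.71) was higher, so that 4 of 9 were lower and 1 higher, against 17.6% and 11.4% of all genes. Ngfr (1.44) and Mag (1.41) were higher in α9k1-crush than in α9k1-naive, against 4.47% of all genes, and the interaction was called for Ngfr. In GFP-crush against GFP-naive, the adhesion molecules Chl1 (-1.07) and L1cam (-0.62) were lower, against 15.7% of all genes.

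Of 52 signalling genes downstream of the receptors 42 were measured. In α9k1-naive against GFP-naive 3 were higher and 3 lower, against 11.4% and 17.6% of all genes, with Ngef (1.71), an exchange factor that acts downstream of EphA receptors, and Rnd1 (1.41), which binds plexins, as the largest increases. Crmp1 (0.49), a mediator of semaphorin signalling, was the third. The kinases Rock1 (-0.66) and Pak1 (-0.56) and the GTPase Cdc42 (-0.25) were lower. In GFP-crush against GFP-naive 1 was higher, Pak1 (0.80), and 5 were lower, among them Dock1 (-1.005) and Src (-0.98), where the background was 7.39% and 15.7%. In α9k1-crush against α9k1-naive Pak1 was higher (1.68) and Src lower (-1.39), against 4.47% and 5.27% of all genes. No gene of either list was called in α9k1-crush against GFP-crush, where 17 signalling genes were higher and 7 lower without covariates, against 29.6% and 28.3% of all genes. Of the 9 co-receptors 6 were then higher, L1cam, Nrcam, Gpc1 and Ngfr by the most, and Omg was lower. Their interactions without covariates were 7 positive and 1 negative, against 23.3% and 16.1% of all genes.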

How the data were processed

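RNA-seq libraries (SMART-Seq v4, unstranded) of GFP-positive DRG cells were grouped by their labels. The labels do not give a batch. The authors aligned reads to mm10/GRCm38 with STAR, filtered alignments with SAMtools and counted with Salmon, and versions are not given in the sources used here. They removed genes with under 10 reads in over 80% of samples, took log2 after adding a small pseudocount and corrected for gene length and depth with cqn, and these log2 values are what was deposited. Without counts no counting error can be given. Rows have no names in that table. They were assigned from the authors' gene table, whose order was checked by correlating row means with the authors' mean (r = 0.959, and at most 0.0984 with rows shifted). The other columns of that table hold the authors' fold changes and p-values and were not used. The authors also deposited Picard metrics per library, as counts, fractions, percentages (dropout) and ratios (coverage).

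The fit used limma 3.58.1 in R 4.3.3 on all 12629 genes and 19 libraries, with 4 group means and the first 3 principal components of the 48 scaled metrics, following the study's model without its batch term. The script was tested on simulated data. Single genes were also compared with 2-sided exact permutation tests on deposited values. The study states biological replicates, and nothing in the labels names the animals. The 43 genes, the marker lists and the tests were chosen with earlier results of these data known. Values in every library, or for the 6 of α9k1-naive the lowest, median and highest, are given for up to 3 called genes at either end of the log2FC range in each comparison, for called interactions, and, whatever their values, for Nrp1, Nrp2, Robo2, Unc5b, Rtn4r, Lingo1 and Ptprs. Plxna4, Epha4 and Dcc were to be given too and were not analysed here. Sema3f and Sema4f were named after their values were seen. Summed marker levels are log2 of summed linear values. Marker genes were 12 neuronal, 9 nociceptor, 8 large-diameter, 13 glial, 12 macrophage, 10 endothelial and 8 fibroblast and mural. Of the 43 genes, 8 overlap an exon of a gene that has no row in the table (Ephb1, Rtn4, Nrp1, Plxnb1, Plxnc1, Rgma, Sema4a and Sema4c), and without strand such reads cannot be told apart. Promoter windows are from RefSeq, and the mouse sequence may differ from that of the rats named in the methods. Alternatives were no covariates, 2 components, only the groups compared, removal of the 25% of genes with the lowest mean, quantile normalization, median centring, removal of GC and length trends, array weights, the replicate number as a block, and leaving out each library. Tables were made with Python 3.11.15, pandas 2.3.3, numpy 2.4.6 and scipy 1.17.1, and figures with matplotlib 3.10.9.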

Additional observations from a re-analysis of the deposited data

Results flagged for a closer look

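In α9k1-crush, Lingo1 in replicate 2 was 4.50, while the other 3 libraries were between 5.22 and 5.36, a gap that passes Dixon's test. In GFP-crush, Sema4a in replicate 2 was 3.97 and the other 3 libraries were between 4.48 and 4.59, which also passes it. These were 2 of 60 sets of libraries checked, where chance gives about 5%.

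The α9k1 effect differed between crushed and naive cells for 3 of the 43 genes by the interaction test, against 2.2% of all genes. The difference was 2.82 for Efnb2, 2.84 for Nrp1 and 2.37 for Slit2, on the log2 scale. In the 19 fits that left out 1 library, the call held in all for Efnb2, in 10 for Slit2 and in 7 for Nrp1.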

How the results depend on the processing

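For α9k1-naive against GFP-naive, 2 were higher and 15 lower. The number higher was 7 without covariates, 4 with quantile normalization, with median centring and with GC and length trends removed (12.8%, 13.1% and 12.1% of all genes), and 1 with the filter on low genes (12.2%), with 1 to 4 when 1 library was left out. The number lower was 8 with the filter (19.7%), and 10 to 17 with 1 library left out. The filter itself removed 15 of the 43 genes. For α9k1-crush against GFP-crush, 0 were higher and 0 lower, against 21 and 4 without covariates, 4 and 1 with 2 components (5.22% and 4.63% of all genes), and 0 and 0 to 1 with 1 library left out (1 lower without GFP-crush replicate 2). For GFP-crush against GFP-naive, 1 was higher, and 2 without covariates, with quantile normalization, with centring and with GC and length trends removed (9.55%, 14.5% and 6.34% of all genes for the last 3), and 1 to 2 with 1 library left out. The 13 lower became 7 with only the 2 groups (5.24% of all genes), and 8 to 14 with 1 library left out (8 without GFP-crush replicate 2 or GFP-naive replicate 2). For α9k1-crush against α9k1-naive, 3 were higher and 1 lower. These were 18 and 9 without covariates, 19 and 9 with 2 components (28.7% and 27.9% of all genes), and 1 and 0 with only the 2 groups (0.507% and 1.09%). The filter left 0 higher (5.59%), and array weights gave 4 lower (8.57%). With 1 library left out they were 2 to 5 and 0 to 3, with the highest of both without α9k1-crush replicate 2. Interactions were 3, and 23 without covariates, 21 with 2 components (26.7% of all genes), 0 with the filter (2.6%), 1 with quantile normalization and with GC and length trends removed (2.07% and 1.73%), and 1 to 3 with 1 library left out. The fit with only the groups compared was not run for the interaction. Without covariates and without α9k1-crush replicate 1, an alternative chosen after seeing the data, α9k1-naive against GFP-naive had 6 higher (16.4% of all genes), GFP-crush against GFP-naive 2 (10.7%), α9k1-crush against GFP-crush 21 higher and 4 lower (27.8% and 25.9%), α9k1-crush against α9k1-naive 18 and 9 (25.7% and 23.9%), and 21 interactions were called (34.9%). Between the fits with and without covariates the sign differed for 4, 3, 3 and 13 of the 43 genes in the first to the fourth comparison of the report and for 5 interactions. In α9k1-crush against GFP-crush Ptprs went from -0.30 to 1.13 without covariates and 0.55 with 2 components. Robo2 went from 0.10 to -0.0272 with quantile normalization and -0.0782 with GC and length trends removed, and from -0.44 to 0.54 with 1 library left out. No called gene that the filter kept lost its call. The moves under the filter are genes it removed: Epha7, and of the lower ones Ephb3, Efna5, Efnb2, Nrp1, Nrp2, Plxna3 and Sema7a, in α9k1-naive against GFP-naive, and Efnb2, Slit2 and Nrp1 in α9k1-crush against α9k1-naive and in the interactions. For the other alternatives the cause was not tested.

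Replicate numbers showed no clear pairing of the samples, though groups of 4 to 6 libraries are too small to exclude it. In 17 pairs the correlation of deviations was -0.269 to 0.133, with 2 over 0.1, and a library matched its own number best in 4. With the replicate block, α9k1-naive against GFP-naive had 1 higher and 8 lower (8.96% and 10.4% of all genes), α9k1-crush against α9k1-naive 1 and 0 (1.23% and 1.39%), and 1 interaction was called (0.206%). With the replicate block and no covariates, α9k1-naive against GFP-naive had 7 higher (17.3% of all genes), α9k1-crush against GFP-crush 21 higher and 4 lower (29.5% and 28%), with Ptprs at 1.13, α9k1-crush against α9k1-naive 18 and 9 (26.2% and 25%), and 21 interactions were called (35.5%).

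Of the values of called genes, and of Efnb2, Robo2 and Ptprs in α9k1-crush against GFP-crush, 983 kept direction and side of the threshold under an alternative, 170 lost the call, 5 gained one and 8 reversed. Of calls that some left-out library ended, that of α9k1-naive against GFP-naive held in 18 of 19 such fits for Unc50, 17 for Plxna3, Plxnb3 and Sema6d, 16 for Efna5, 12 for Sema4c and 11 for Sema3c. That of GFP-crush against GFP-naive held in 18 for Sema4d, 16 for Epha7, 15 for Plxna3, 14 for Rtn4 and Sema3b, 13 for Plxnb3 and 12 for Plxnd1. The value table gives no read depth per gene, so low genes cannot be given a counting error.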

Other observations

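Sema6a, named after its values were seen, was 8.54 in replicate 1 of GFP-crush and 8.29 in replicate 1 of α9k1-crush, while the other libraries of those groups were between 4.10 and 5.03. In GFP-naive it was 4.36 to 4.68 and in α9k1-naive 4.63 to 5.85. It was called in none of the 4 comparisons, with or without covariates.

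The log2 summed level of 8 measured nociceptor markers of 9 was 11.6 to 12.6 in GFP-naive, 12.4 to 13.2 in α9k1-naive, 11.3 to 12.6 in GFP-crush and 9.02 to 12.2 in α9k1-crush, where the value of 9.02 is replicate 1, the library in which Sema6a was also high. For 8 large-diameter markers it was 11.1 to 11.4, 11.6 to 11.97, 11.2 to 11.8 and 11.5 to 11.7. In both naive groups Spp1 had the highest mean of these markers, 10.45 in GFP-naive and 11.64 in α9k1-naive. Between these groups 2 of the 8 markers, Spp1 and Ntrk2, were called higher and 4 lower, with a median log2FC of -0.70. Of the nociceptor markers Trpv1 was called higher in α9k1-naive than in GFP-naive and lower in α9k1-crush than in α9k1-naive. P2rx3 was called lower after crush in the GFP groups. The part of these neuron types in the values of the guidance genes was not tested.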
